A study of Homo sapiens with 8 samples.

Results

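The La and La-related RNA-binding proteins were followed after knockdown of one of them, LARP6, in cultured human hepatic stellate cells, which deposit collagen-rich scar in injured liver. The members were taken by gene name from the authors' deposited table of translation efficiency, and 6 of its 12109 transcripts are members: LARP1, LARP4, LARP4B, LARP6, LARP7 and SSB, the gene for La itself. The knockdown cells are labelled as LARP6 kd and received dsiLARP6, and the control cells are labelled as WT and received dsi-control; the labels give neither the sequence of the silencing agent nor the time after treatment. RNA-seq and ribosome profiling, which sequences the RNA that ribosomes protect from nuclease, were each done on 2 knockdown and 2 control libraries, 8 in all. The cells were labelled as a cell line and grown in DMEM with 10% serum. The design text of the series also speaks of TGF-beta treatment and of mapping LARP6 binding sites, but the labels of these 8 libraries name no TGF-beta. The table gives 1 value per transcript for the whole comparison, with no value per library. Spread between replicates, depth and the level of LARP6 RNA were therefore not analysed here, and the precision of each value rests on the authors' p-value.

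Proteins of the La family share a La motif, typically followed by an RNA recognition motif, and bind RNA. La binds the uridine-rich ends of fresh RNA polymerase III transcripts, and LARP7 holds the 7SK RNA that keeps the transcription elongation factor P-TEFb inactive. LARP1 binds messages that begin with a pyrimidine tract, mostly those of ribosomal proteins and elongation factors, under control of the kinase complex mTORC1. LARP4 binds poly(A), LARP4B binds messages with A- and U-rich stretches, and both bind the poly(A)-binding protein. LARP6 binds a stem-loop around the start codon of type I and type III collagen messages, which hepatic stellate cells make in large amounts.

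The bases around the start codons are shown because footprints per RNA depend on initiation, and because this is where LARP6 meets its collagen targets. Each line gives 15 bases before the start codon, the start codon in capitals, and 12 bases after it, from GENCODE release 29 transcripts on GRCh38.
LARP6: gcagtcccgcgagccATGgcccagtccggc
SSB: ttaaagatagccgcaATGgctgaaaatggt
LARP7: ggagtcgaacggagaATGgaaactgaaagt
LARP1: ggggcgggcgcgcagATGgccactcaggtg
LARP4: tgagcagaggacgacATGttgcttttcgtg
LARP4B: ctcccagtggagcccATGacttctgatcag
COL1A1: gtctagggtctagacATGttcagctttgtg
COL1A2: gtctaagtgctagacATGctcagctttgtg

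The starts of COL1A1 and COL1A2, the type I collagen chains, share the run tcagctttgtg just after the start codon, 11 bases long and searched on the transcript strand only. The run ends at the last base shown for both, where the search stopped, so the shared stretch may be longer. As the run was taken from these 2 starts, its presence in them was given in advance. It occurred in 2 of the 10030 start windows in complete coding transcripts, those of COL1A1 and COL1A2 themselves, and in 0 of the 6 La-related ones. Over whole transcripts the run occurred in 0.308% of 10397 complete coding transcripts and again in 0 of the 6. The listed LARP1 transcript is incomplete at its far end and is not part of these totals. LARP6, LARP7 and SSB have both an A or G 3 bases before the start codon and a G right after it, the bases known to favour initiation in vertebrates. Both were present in 46.7% of the start windows, and neither in 6.16%, among them that of LARP4B. LARP4 has only the first of these bases and LARP1 only the second.

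No message of the family was called as changed in translation efficiency after LARP6 knockdown. A transcript is called here where the adjusted p in the authors' deposited table was under 0.05, a threshold set for this description, since the table itself marks no calls. Of the 6 members, 0 were called, beside 2.20% of all transcripts, of which 1.07% were higher and 1.12% lower in the knockdown. With so few members, a count of 0 is near that share and does not set the family apart. With an unadjusted p under 0.05 the count was also 0 of 6, against 10.3% of all transcripts in the authors' deposited table. It was 0 as well at an adjusted p of 0.1 (2.81% of all transcripts) or 0.01 (1.52%), and with the first method's p-values alone (3.77%) or the second's (2.82%). Log2 changes, given as knockdown over control throughout, ranged from −0.34 for SSB to 0.21 for LARP7 in the authors' deposited table. The median of the members was 0.13 and that of all transcripts 0.02, and 5 of the 6 members lay above 0, as did 50.8% of all transcripts in the authors' deposited table. Without LARP1, whose listed transcript is incomplete, the median of the members was 0.07. The smallest p-value among the members in the authors' deposited table, that of LARP1, was 0.37. A p-value that misses the threshold does not show that an efficiency was the same in both conditions, and without a standard error no interval can be put around these values.

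**Figure D1:**
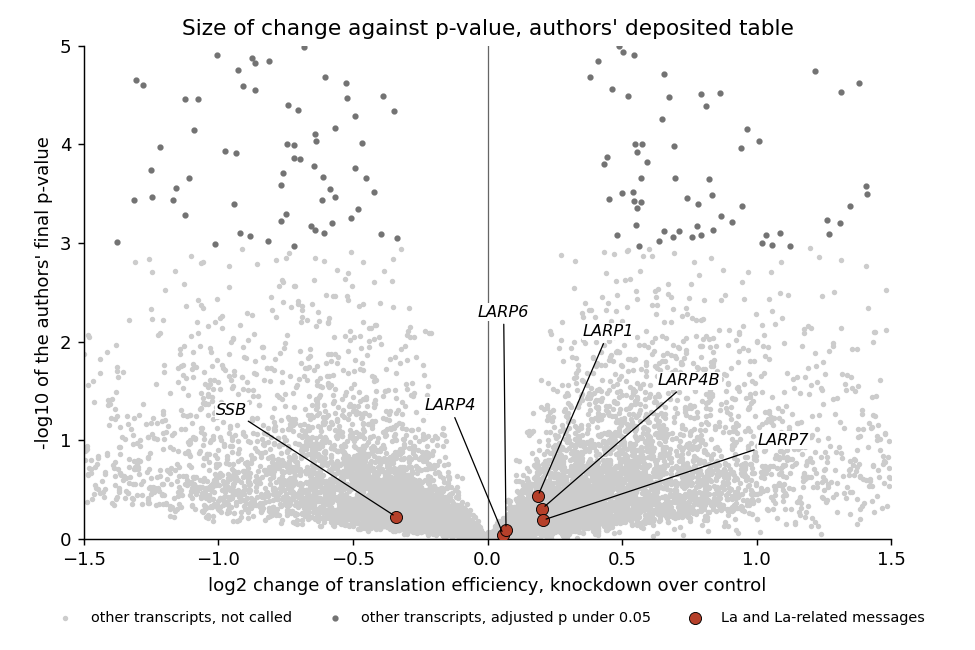
Each point is a transcript, with its log2 change of translation efficiency (knockdown over control) on the horizontal axis and −log10 of the authors' final p-value on the vertical axis; 554 transcripts lie outside the axes. The 6 La-related messages, in red, sit near the bottom between −0.34 and 0.21, far under the dark points that passed an adjusted p of 0.05.

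The members differed far more from each other than between the conditions. Knockdown log2 efficiencies spanned 2.14, a 4.42-fold range, and the derived control log2 efficiencies spanned 2.14 as well, while the log2 changes spanned 0.54 in the authors' deposited table. From low to high in the knockdown, the order was LARP4, SSB, LARP1, LARP4B, LARP7 and LARP6 in the authors' deposited table. In the derived control values SSB and LARP1 traded places and the rest of the order was the same. The gaps in log2 efficiency between LARP4 and SSB (0.17) and between LARP7 and LARP6 (0.13) were smaller than the log2 change of SSB in size in the authors' deposited table. The widest gap, 0.97, separated LARP4B from LARP7. Which neighbours differ beyond their spread cannot be said without values per library. In the knockdown, 4 members lay below the median of all transcripts (0.01) and 2 above it in the authors' deposited table.

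**Figure D2:**
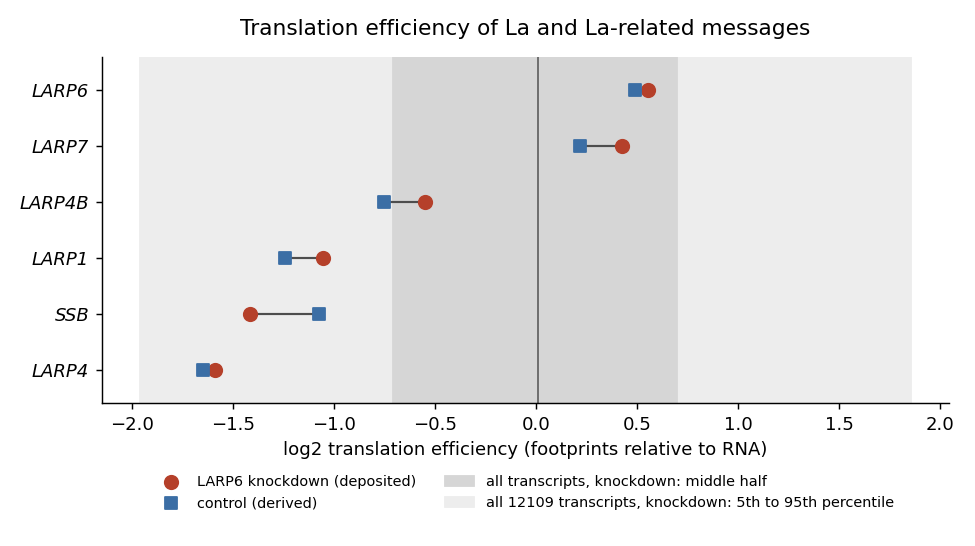
Log2 translation efficiency of each member in the knockdown (red circles, deposited) and in the control (blue squares, knockdown value minus the second method's log2 change), over shaded bands for all transcripts in the knockdown. LARP6 and LARP7 lie to the right of the median line, LARP4, SSB, LARP1 and LARP4B to its left, and each pair of symbols lies close together.

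LARP6, the target of the knockdown by the labels and the collagen-binding member of the family, had the highest efficiency of the 6. Its log2 efficiency was 0.55 in the knockdown and 0.49 in the control, in or derived from the authors' deposited table. In the knockdown, 70.1% of all transcripts lay below it. The log2 change of LARP6 was 0.07 (p = 0.81, adjusted p = 0.98) per the authors' deposited table, a 1.05-fold ratio. Since a loss of LARP6 RNA lowers footprints and RNA alike, the ratio does not check the knockdown. The listed transcript is the principal one and lies on chromosome 15, 70829130 to 70854159, minus strand, with 3 exons, and encodes 491 amino acids. Its 5′ UTR of 71 bases was shorter than that of most coding transcripts (17.3% were shorter), and its 3′ UTR of 2922 bases was long (81.4% were shorter). Over the knockdown and control log2 efficiencies, the protein-coding transcripts nearest to LARP6 were those of KBTBD4 (distance 0.0046) and CSTPP1 (0.0093). This is likeness over 2 values and says nothing of shared control.

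The messages LARP6 is known to bind did change. COL3A1 had a log2 efficiency of −0.96 in the knockdown and −0.15 in the control, and fell by 0.82 (adjusted p = 3.2e-23) per the authors' deposited table. COL1A1 and COL1A2 fell by 0.57 (adjusted p = 2.3e-11) and 0.42 (adjusted p = 4.0e-05) on the log2 scale per the authors' deposited table. Of 14 genes listed as partners and targets of LARP6, 1 rose and 5 fell by the adjusted p in the authors' deposited table, beside 2.20% of all transcripts called, with a median log2 change of −0.35. This list, like the others, was chosen with earlier results of these data known, so its count and median are no independent evidence. VIM, the intermediate filament protein with which LARP6 associates, was the one that rose, by 0.40 (adjusted p = 0.000144) per the authors' deposited table. The other falls in the authors' deposited table, named here after their values were seen, were ID1 by 0.71 and ID2 by 1.25 on the log2 scale, regulators that bind transcription factors. ID1 and ID2 stand in the list without a binding role for LARP6 given here, and the 3 falls besides them are the collagens. ID3, of the same family and list, went the other way, with a log2 change of 0.23 (adjusted p = 0.50) per the authors' deposited table. The non-muscle myosins MYH9 and MYH10, the helicase DHX9 and the adaptor STRAP had log2 changes of 0.13, −0.43, −0.28 and −0.40 in the authors' deposited table, with adjusted p-values of 0.766 or more.

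SSB, which encodes La, was the one member with a lower value in the knockdown. Its log2 efficiency was −1.42 in the knockdown and −1.08 in the control, in or derived from the authors' deposited table. The log2 change of −0.34 did not pass (p = 0.60, adjusted p = 0.96) per the authors' deposited table. In size it was like the smallest absolute log2 change of any called transcript, 0.34 in the authors' deposited table. Of the 1350 other transcripts whose absolute log2 change lay within 0.05 of that of SSB, 4 (0.296%) were called in the authors' deposited table. The listed SSB transcript lies on chromosome 2, 169798812 to 169812064, plus strand. It is the shortest listed transcript of the family, with 1709 bases, 12 exons and a product of 408 amino acids. Only 10.6% of all transcripts had a lower knockdown efficiency than SSB in the authors' deposited table.

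For RNA polymerase III and the Ro particle, whose RNAs La binds, the count of calls was near the share over all transcripts. Among 32 measured genes of that list besides SSB, 0 were called by the adjusted p in the authors' deposited table (2.20% of all transcripts) and 1 had an unadjusted p under 0.05 (10.3%). Their median log2 change was 0.14 in the authors' deposited table, with 21 above 0 and 11 below. RO60, the Ro protein that shares Y RNAs with La, had a log2 change of 0.10 (adjusted p = 0.98) per the authors' deposited table. The smallest p-values of the list in the authors' deposited table belonged to RPPH1, the RNA of ribonuclease P, with a log2 change of 2.50 (adjusted p = 0.15), and to the polymerase subunit POLR3B, with a knockdown-to-control ratio of 0.499 (adjusted p = 0.52). For RPPH1 the p-values of the methods in the authors' deposited table lay far apart, 0.0053 for the first and 7.4e-18 for the second, and the final one is the larger, so the absence of a call rests on that choice. RPPH1 is not translated, so its ratio of footprints to RNA is not a translation rate.

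LARP7, the 7SK-binding member, had the second highest efficiency. Its log2 efficiency was 0.42 in the knockdown and 0.22 in the control, in or derived from the authors' deposited table, and the log2 change was 0.21 (p = 0.65, adjusted p = 0.97). The listed LARP7 transcript lies on chromosome 4, 112636964 to 112657586, plus strand, with 13 exons and 582 codons. Its 5′ UTR of 278 bases is the longest of the family and holds 3 upstream ATG triplets, whereas the other 5 members have 0. Of complete coding transcripts, 16.7% held 3 or more, with a median knockdown log2 efficiency of −0.28, against 0.11 for those with none. LARP7 lay above both medians.

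The 7SK RNA held by LARP7 is listed under the names RN7SK and 7SK, at overlapping positions on chromosome 6, with identical values. Its log2 ratio was −1.39 in the knockdown and −0.13 in the control, a log2 change of −1.26 (p = 0.093, adjusted p = 0.63) per the authors' deposited table. As 7SK is not translated, this is a ratio of RNA fragments and not an efficiency of translation. Among the 16 measured genes of the 7SK particle and P-TEFb other than LARP7, 0 were called (2.20% of all transcripts) and 0 had an unadjusted p under 0.05 (10.3%) in the authors' deposited table. Their median log2 change was −0.19, with 6 above 0 and 10 below. CCNT2, a cyclin of P-TEFb, had a log2 change of −0.90 (adjusted p = 0.78), and its kinase CDK9 had −0.19 (adjusted p = 0.94) per the authors' deposited table.

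LARP1, the reader of pyrimidine-tract messages, had a log2 efficiency of −1.06 in the knockdown and −1.24 in the control, in or derived from the authors' deposited table. The log2 change was 0.19 (p = 0.37, adjusted p = 0.91) per the authors' deposited table. Its row is named by a transcript on chromosome 5, 154755575 to 154804208, plus strand, an incomplete model of 2630 bases that ends inside the coding sequence. The principal LARP1 transcript is 6595 bases long and was not analysed here. Incomplete models name 1.46% of the 10551 protein-coding transcripts, and LARP1 is the one member among them. The other 5 carry a principal transcript, like 90.1% of protein-coding transcripts. The sources used here do not say how transcripts were chosen or whether reads from the rest of LARP1 were counted. LARP1B, the paralog of LARP1, was not analysed here.

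Among messages described as starting with a pyrimidine tract, the kind LARP1 binds, 16 were measured besides LARP1, of which 4 rose and 0 fell by the adjusted p in the authors' deposited table, beside 1.07% of all transcripts higher and 1.12% lower. Their median log2 change was 0.31, with 13 above 0, against 0.02 for all transcripts. Among them, the elongation factor EEF2 rose by 0.41 (adjusted p = 0.0014), the ribosome-bound scaffold RACK1 by 0.46 (adjusted p = 0.0024) and VIM by 0.40 in the authors' deposited table. Of 40 cytosolic ribosomal proteins, 2 rose and 0 fell, among them RPL37A by 1.32 (adjusted p = 0.0025), with a median log2 change of 0.43 and 29 above 0 in the authors' deposited table. Single values are uncertain here, since these genes have numerous processed pseudogene copies. A pyrimidine start here means C followed by 4 of C or T at the annotated 5′ end. It was found in 3.08% of complete coding transcripts and in 0 of the 6 listed La-related models. The incomplete LARP1 model is not in that total, and it starts at 154755575, inside a gene annotated from 154712902. Whether the principal LARP1 message begins with such a tract was not analysed here.

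For the mTORC1 complex and the cap-binding factors, which act with LARP1, the count of calls was near the share over all transcripts. Among 29 measured genes besides LARP1, 0 rose and 1 fell by the adjusted p in the authors' deposited table, beside 2.20% of all transcripts called, with a median log2 change of −0.01. DEPTOR, an inhibitor of mTOR, was 2.96-fold lower (adjusted p = 0.000144) per the authors' deposited table, with a log2 efficiency of −0.88 in the knockdown and 0.69 in the control. MTOR and RPTOR themselves had log2 changes of −0.23 and −0.04 (adjusted p = 0.95 and 0.99), and EIF4G1, the scaffold of the cap-binding complex, had −0.34 (adjusted p = 0.32) per the authors' deposited table.

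LARP4 and LARP4B, close paralogs that bind the poly(A)-binding protein, had efficiencies below the median of all transcripts in both conditions. LARP4 had the lowest of the family, a log2 efficiency of −1.59 in the knockdown and −1.65 in the control, with 8.23% of all transcripts below it in the knockdown. Its log2 change was 0.06 (p = 0.91, adjusted p = 0.99) per the authors' deposited table. LARP4B had a log2 efficiency of −0.55 in the knockdown, with 29.9% of all transcripts below it, and −0.76 in the control. The log2 change of LARP4B was 0.20 (p = 0.50, adjusted p = 0.94) per the authors' deposited table. The listed LARP4 transcript (chromosome 12, 50400899 to 50480004, plus strand) has 16 exons and that of LARP4B (chromosome 10, 809542 to 885762, minus strand) has 17. Their products of 724 and 738 amino acids are of nearly equal length. Both messages have long 3′ UTRs, of 4140 and 3384 bases, longer than those of 90.1% and 85.4% of complete coding transcripts. LARP4 is also poor in G and C, at 35.8%, with 1.83% of coding transcripts below it. A processed pseudogene, LARP4P, has a row of its own with a log2 change of 0.41 (adjusted p = 0.99) per the authors' deposited table. The log2 ratio of footprints to RNA for LARP4P was 3.41 in the knockdown and 2.97 in the control, far above the values of LARP4. The sources used here do not say how reads shared between LARP4 and LARP4P were assigned.

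For poly(A)-binding proteins and the genes listed with them as background of LARP4 and LARP4B, the count of calls was likewise near the share over all transcripts. Among 31 measured genes other than the La-related ones, 1 rose and 0 fell by the adjusted p in the authors' deposited table, beside 2.20% of all transcripts called, with a median log2 change of −0.05. The gene that rose was RACK1, the ribosome-bound scaffold already counted among the pyrimidine-tract messages. PABPC4, a cytoplasmic poly(A)-binding protein named here after its value was seen, had a log2 change of 1.00 (p = 0.0099, adjusted p = 0.22) per the authors' deposited table. As messages of proteins of a like kind, 35 other mRNA-binding regulators gave 0 calls (2.20% of all transcripts) and 2 with an unadjusted p under 0.05 (10.3%) in the authors' deposited table. Their median knockdown log2 efficiency was −0.47 and their median log2 change −0.03, beside −0.80 and 0.13 for the La-related messages (0.07 for the change without LARP1). RBMS3 and ZFP36L1 had the smallest p-values of that list in the authors' deposited table, with log2 changes of −1.01 (adjusted p = 0.17) and −0.27 (adjusted p = 0.40).

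**Figure D3:**
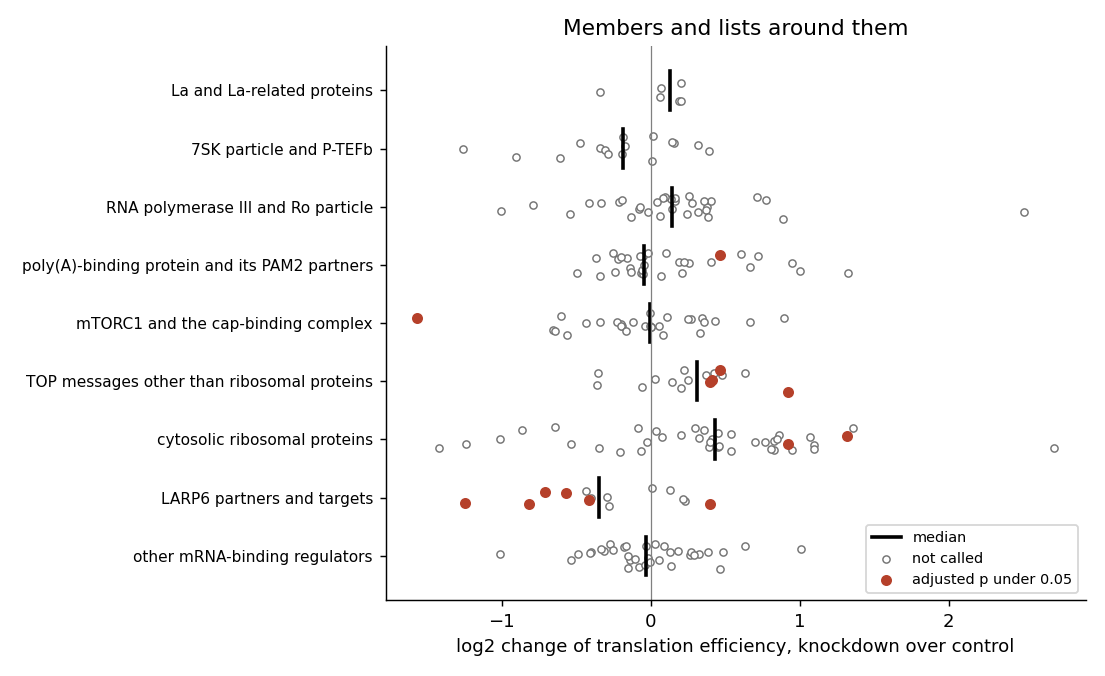
Log2 change of translation efficiency (knockdown over control) of the 6 La-related messages and of each list without them, with filled red points for transcripts past an adjusted p of 0.05 and a black bar at each median. The La-related messages lie between −0.34 and 0.21, with 0 of 6 points filled. LARP6 partners and targets hold 6 filled points of 14, and the pyrimidine-tract messages other than ribosomal proteins hold 4 of 16.

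The members with the highest and lowest efficiencies do not line up by transcript length. Across 10397 complete coding transcripts, knockdown log2 efficiency was lower for longer transcripts (Spearman's rho −0.43) and for longer coding sequences (rho −0.40), and more weakly for longer 3′ UTRs (rho −0.22). These are descriptions across genes, which share the same libraries and are not independent replicates. Among the listed models, SSB is the shortest transcript and has the second lowest efficiency, whereas LARP6, with 4469 bases, has the highest. LARP4, at 6427 bases the longest of the listed models, has the lowest. The LARP1 model is incomplete at 2630 bases, and the principal LARP1 transcript of 6595 bases is longer than that of LARP4. The log2 change after knockdown hardly followed length (rho −0.05) or GC content (rho 0.08).

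**Figure D4:**
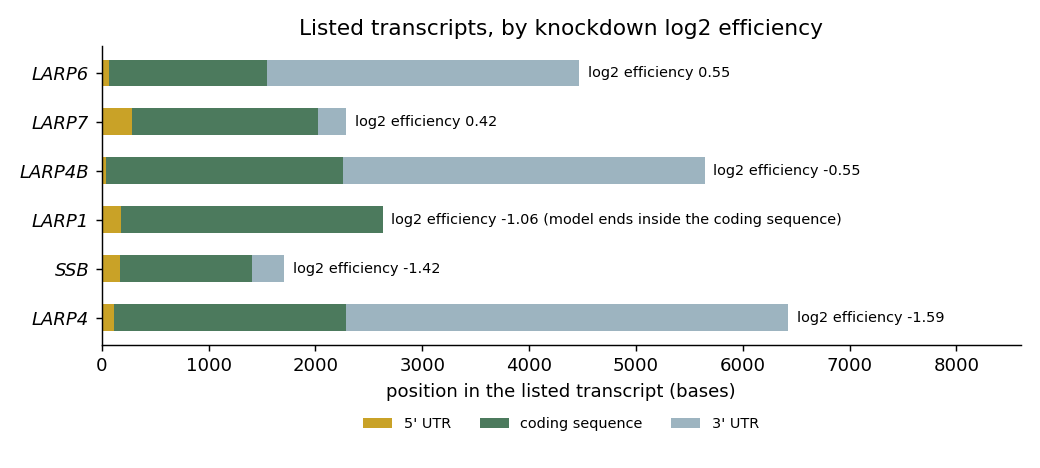
The listed transcript of each member drawn to scale in bases, with the 5′ UTR, coding sequence and 3′ UTR in separate colours and the knockdown log2 efficiency beside it, highest at the top. SSB, at 1709 bases, sits just above LARP4, at 6427 bases, and the LARP1 model ends inside the coding sequence.

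As a check of the labelled cell type, 10 of 13 stellate and fibroblast markers were measured, among them PDGFRB, COL1A1, ACTA2 and LUM, while DES and LRAT were not analysed here. Of markers of other liver cells, 2 of 6 for hepatocytes (APOA1, SERPINA1) and 1 of 4 for endothelium (VWF) were measured. So were 2 of 4 for leukocytes (CD68, CD14) and 3 of 4 for bile ducts (KRT19, KRT7, SOX9). ALB, PECAM1, PTPRC and EPCAM were not analysed here. The share for bile ducts was near that for stellate cells and fibroblasts, so these counts do not settle the cell type. An efficiency does not tell how abundant a transcript was, and what part other cells have in the values was not tested. In bulk cultures a change in some cells and a smaller one in all cells cannot be told apart. Since the labels name no separate cultures for the replicates, the p-values may reflect technical spread alone.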

How the data were processed

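The analysis starts from 1 deposited table. Per the file headers, its columns hold 2 estimates and a final choice of the log2 change in translation efficiency, with p-values, and the log2 efficiency of the knockdown. In 12109 of 12109 transcripts the deposited final p-value and log2 change are those of whichever method gave the larger p-value (relative tolerance 1e-09), and the deposited adjusted p-value matches its Benjamini-Hochberg adjustment to within 6.3e-15. Per the submitters' processing notes, the tools include cutadapt and Bowtie and the builds hg38 and GRCh38; the sources used here do not name the program that compared efficiencies. Control log2 efficiency was derived as the knockdown value minus the second method's log2 change.

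Row names end in 6 digits of a transcript identifier, which matched 11581 transcripts of GENCODE release 29 on GRCh38. Sequences, lengths and coordinates come from there. Transcripts were called here where the authors' deposited adjusted p was under 0.05; the table gives no threshold and no calls. Lists are described by counts and medians, without a set test. Named genes were every member, the called genes of each list (at most 4, by smallest p) or else its 2 smallest p-values, the nearest to LARP6 and the collagens; the genes named outside this rule were chosen for their known roles or after their values were seen. Some results the rule takes are not reported here. The members and lists were chosen with earlier results of these data known. Adjustment and percentile code was tested on simulated data (Python 3.11.15, pandas 2.3.3). No model was fitted.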

Additional observations from a re-analysis of the deposited data

How the results depend on the processing

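The count of La-related messages called was 0 in the authors' deposited table at an adjusted p of 0.1 or 0.01, at an unadjusted p under 0.05, and with either method's p-values alone. Their median log2 change of 0.13 stayed between 0.11 and 0.13 with either method alone or after subtracting the median of all transcripts, and was 0.07 without LARP1, an alternative chosen after seeing the data. Each member kept its direction and stayed uncalled under the 3 alternatives run for it. Little else was possible, as each final value is taken from either method, and the methods' log2 changes correlated at 0.999 over all transcripts (Pearson). Subtracting the median changed no p-value. With a smallest final p-value of 0.37 among the members, the counts of 0 at other thresholds followed from it. These alternatives are therefore no independent checks. Among all transcripts the 266 calls became 1246 (10.3%) at an unadjusted p under 0.05 and 457 with method 1 alone. The lists' 11 calls among 208 distinct genes became 26 at an unadjusted p under 0.05, near the share over all transcripts. No paired analysis was possible because the table gives no value per library, so models with a replicate block or without single replicates were not run. Depth is unknown, so small changes of any member may have gone undetected.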
